A study of Mus musculus with 18 samples.

Results

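Neural progenitor cells with floxed Upf2 alleles that received a Cre virus were compared with the same kind of cells that received medium alone. The comparison rests on 12 of the 18 libraries of the series, chosen by their labels: 6 Upf2 Cre libraries and 6 Upf2 mock libraries, each group with the replicate numbers 3, 4, 5, 6, 8 and 9. Both groups are Upf2fl/fl cells of the C57BL/6 background from mouse cortex, and were lysed for total RNA at 72 h. The Upf2 Cre group was infected with AAV9-Cre, an adeno-associated virus that carries Cre recombinase; the virus medium was replaced at 14 h. The Upf2 mock group received the same volume of medium with no virus, so Cre, virus exposure and loss of the floxed segment go together between the groups. All RNA had an integrity number of at least 9.0. The labels call the libraries biological replicates but do not say whether each came from its own animal or its own culture. The p-values below therefore measure the spread between these libraries only. The series title asks how nonsense-mediated mRNA decay (NMD) and TRP53 act together on progenitor maintenance, and this comparison shows the transcriptome after Cre in cells whose Trp53 alleles were not floxed.

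UPF2 is a core NMD factor that joins UPF1, the helicase of the pathway, to UPF3B at the exon junction complex. NMD degrades transcripts in which translation stops upstream of an exon junction, and it also holds down a set of normal mRNAs, among them those of ATF4, CHOP and the GADD45 stress proteins and the host transcripts of many small nucleolar RNAs (snoRNAs). p53, encoded by Trp53, is a transcription factor that turns on genes of cell cycle arrest and cell death, such as Cdkn1a and Bbc3. Cortical progenitors are dividing cells, and their cell cycle genes stand among their characteristic transcripts.

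The levels are TPM, transcript abundances scaled by length and to a fixed total per library. Sequencing depth cannot be read from such values. A library held 14019 to 14745 genes of 1 TPM or more, and the 14335 genes that reached this level in 6 or more of the 12 libraries were tested. Differences are given as Upf2 Cre minus Upf2 mock on the log2(TPM + 1) scale, which understates the change of low genes, with the standard error (SE) and the Benjamini-Hochberg adjusted p of limma over all tested genes, and a gene is said to have risen or fallen only where that adjusted p is under 0.05.

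Some libraries stood apart before any gene was considered. On the first principal component, which held 56.9% of the variance, Upf2 Cre 3 lay at -42.8, among the mock libraries and not with the other 5 Upf2 Cre libraries, which lay between 30 and 77.5. Of the mock libraries, 5 lay between -63.6 and -30.2 and mock 8 lay at 8.41. On the second component, with 15.5% of the variance, mock 3 lay at -81.6. A small RNA gene annotated as a miRNA, Gm23935, took 14.1% of all TPM in Upf2 Cre 6 and 20334 TPM in mock 6, against 968 to 9646 TPM in the remaining libraries. Many of the larger moves of a list's count with 1 library are given beside the count. A count without such values may move as well.

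**Figure D1:**
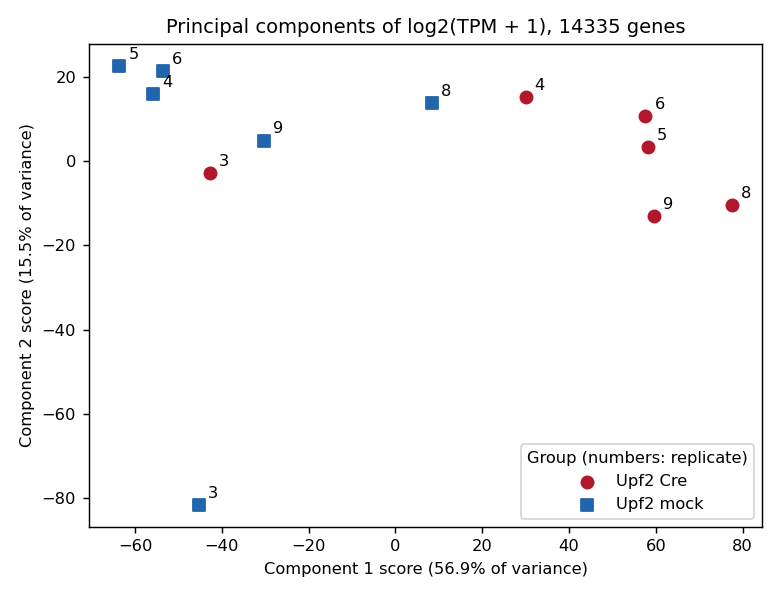
Each point is 1 library placed by the first and second principal components of log2(TPM + 1) over the tested genes, with the share of variance on each axis and the replicate number beside the point. The Upf2 Cre libraries other than number 3 lie between 30 and 77.5 on the first component, while Upf2 Cre 3 lies at -42.8, inside the range of the mock libraries.

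Base composition moved with the comparison. Over 11639 coding genes, the GC content of the longest coding transcript and the log2 difference had a Spearman correlation of 0.674, given as a description since the genes share the same 12 libraries. Genes were split by GC content into 10 bins of like size. In the bin of lowest GC content (31.9 to 42% GC, 1164 genes) 7 rose and 357 fell, with a median difference of -0.52. In the bin of highest GC content (58.4 to 76.3%) 518 rose and 5 fell, with a median of 0.61. The median deviation from the mock mean was higher in the highest than in the lowest bin by 1.06 to 1.69 in Upf2 Cre 4, 5, 6, 8 and 9 and by 0.01 in Upf2 Cre 3, and among the mock libraries this gap was 0.96 in mock 8 and between -0.68 and 0.21 in the others. The called counts of a whole list are therefore also given after an adjustment that takes away, in each library, the median deviation of genes of like GC content. After this GC adjustment the correlation was 0.0822. What part of the GC trend belongs to the cells and what part to the libraries was not tested, and the adjustment takes away both.

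**Figure D2:**
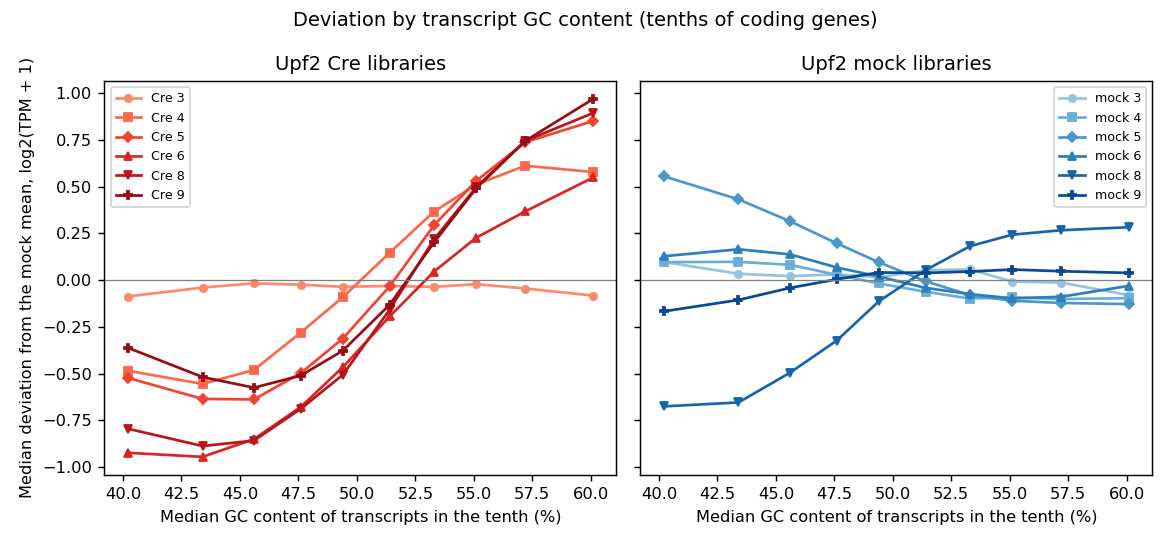
Median deviation from the mock mean on the log2(TPM + 1) scale (vertical axis) of coding genes in 10 bins of transcript GC content in percent (horizontal axis), with 1 line per library, Upf2 Cre left and Upf2 mock right. The lines of Upf2 Cre 4, 5, 6, 8 and 9 and of mock 8 climb with GC content, that of Upf2 Cre 3 is flat, and that of mock 5 falls.

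Of the 14335 tested genes, 1974 (13.8%) rose and 3023 (21.1%) fell in the Upf2 Cre libraries, and the median difference of all genes was -0.14. These shares are the background for the main counts below. Counts in another setting are read against all tested genes in that setting. In bulk RNA, fewer cells of a type and less RNA per cell cannot be told apart. The values of the groups did not overlap for 539 genes that were higher in Upf2 Cre (3.76%) and for 303 that were lower (2.11%). After the GC adjustment 1503 rose (10.5%) and 1481 fell (10.3%) of 14328 genes; 979 of the 1972 risers with a GC value (49.6%) and 1185 of the 3023 fallers (39.2%) were called again in the same direction, and none was called in the other. Under median-ratio scaling, which shifted the median of all genes to -0.02, 2572 rose (17.9%) and 2300 fell (16%). The total of 4997 changed genes was 7536 without Upf2 Cre 3 and 8257 without both libraries numbered 3, where 24.5% rose and 33.1% fell. It was 2872, 3240 and 2917 without Upf2 Cre 5, 6 or 8, and 3142, 3124 and 3193 without mock 4, 5 or 6. Of all tested genes 1625 to 2195 fell without any 1 of Upf2 Cre 5, 6, 8 or 9 or mock 4, 5, 6 or 9. In the same settings 1212 to 1550 rose. Without Upf2 Cre 3, 4413 fell and 3123 rose, and without mock 8, 3997 fell and 2234 rose. The counts of a list move against this background. When a change of more than 1.5-fold was required, 85 rose and 7 fell.

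Upf2 itself was measured first, as the floxed gene. Upf2 (ENSMUSG00000043241.14; mm10 chr2:5951469-6056703, plus strand) had 27.6, 23.3, 18.9, 14.3, 16.5 and 20.8 TPM in Upf2 Cre 3, 4, 5, 6, 8 and 9, against 12, 10.4, 15.8, 10.7, 6.54 and 11.4 TPM in mock 3, 4, 5, 6, 8 and 9. All but the lowest Upf2 Cre value lay above the highest mock value, so the level of the floxed gene was higher, not lower, in Upf2 Cre. The means were 20.2 ± 4.82 TPM in Upf2 Cre and 11.1 ± 2.98 TPM in Upf2 mock (SD, n = 6 each), a log2 difference of 0.82 (exact two-sided permutation p = 0.0043, adjusted over Upf2 and Trp53 p = 0.0087), and it was 1.37 by limma after the GC adjustment. A level over all exons of a gene also counts exons outside the floxed segment, so it does not check the deletion. Trp53 had a lowest, median and highest level of 86.6, 143 and 189 TPM in Upf2 Cre and 81.4, 102 and 136 TPM in Upf2 mock. The groups overlapped, and the difference of 0.39 in log2 missed the threshold (exact two-sided permutation p = 0.0714). It passed without Upf2 Cre 3 (0.51; exact permutation adjusted p = 0.011) and without mock 8 (0.47; exact permutation adjusted p = 0.035).

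Transcripts described as natural NMD targets included many that rose. All 45 on the list were tested; 21 rose (46.7%, against 13.8% of all tested genes), 4 fell and 20 did not pass, with a median log2 difference of 0.45, and after the GC adjustment 24 rose and 2 fell. With 1 library left out, 21 to 26 rose and 1 to 6 fell. Of 9 stress genes 8 rose (median 2.12), of 10 snoRNA host and related transcripts 6 rose (median 1.21), of 9 NMD factors that are themselves targets 5 rose and Smg8 fell (median 0.69), and of 17 others 2 rose and 3 fell (median -0.16). The call of Smg8 was lost without Upf2 Cre 5, 6, 8 or 9 or mock 4, 5, 6 or 9 and after the GC adjustment.

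Gadd45b encodes a stress-induced growth arrest protein. Gadd45b (ENSMUSG00000015312.9; mm10 chr10:80930073-80932204, plus strand) had 39.9, 18.7, 23.5, 25.5, 20.9 and 15.9 TPM in Upf2 Cre 3, 4, 5, 6, 8 and 9, against 5.77, 4.39, 2.80, 4.97, 2.86 and 2.07 TPM in mock 3, 4, 5, 6, 8 and 9. Every Upf2 Cre value lay above every mock value, and Upf2 Cre 3, which sat with the mock libraries on the first principal component, held the highest (difference 2.38 ± 0.25 SE, limma adjusted p = 1.6e-04). Its relative Gadd45g spanned 397 to 1045 TPM in Upf2 Cre, with a median of 681 TPM, and 27.4 to 180 TPM in Upf2 mock, with a median of 55.8 TPM (difference 3.44). Gadd45a rose by 0.80. Atf4, which encodes the main transcription factor of the integrated stress response, had 1090, 1183, 900, 895, 612 and 620 TPM in the same order in Upf2 Cre and 124, 265, 295, 290, 254 and 296 TPM in Upf2 mock (difference 1.81 ± 0.24 SE, limma adjusted p = 6.7e-04). The groups were apart here too, with mock 3 lowest. Of the NMD factors, Smg5, Smg9, Upf1 and Smg6 rose by 1.25, 1.22, 0.81 and 0.69, while Smg1, Upf3b and Upf3a had differences of 0.26, 0.40 and 0.02 and did not pass.

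Of 25 tested snoRNA hosts on the list, 6 rose, all of them noncoding, and 2 fell, both of which encode chaperones. Zfas1 (ENSMUSG00000074578.14; mm10 chr2:167062934-167065862, plus strand), a noncoding host of snoRNAs, had 1389, 1079, 790, 640, 509 and 447 TPM in Upf2 Cre 3, 4, 5, 6, 8 and 9, against 275, 62.5, 72.1, 60.9, 60.7 and 81.0 TPM in mock 3, 4, 5, 6, 8 and 9. Snhg15 (ENSMUSG00000085156.7; mm10 chr11:6525591-6528760, minus strand) had 342, 263, 219, 182, 131 and 127 TPM in Upf2 Cre and 13.0, 29.8, 35.0, 29.7, 28.4 and 25.7 TPM in Upf2 mock. In both genes the groups were apart, Upf2 Cre 3 held the highest value, and mock 3 left the other mock libraries, upward in Zfas1 and downward in Snhg15 (differences 3.12 ± 0.37 and 2.89 ± 0.28 SE, limma adjusted p = 2.5e-04 and 9.4e-05). The submitters' notes do not say whether counting used the strand, so reads of Zfas1 and of its antisense neighbour cannot be told apart. The noncoding host 2410006H16Rik, which is not on that list, reached 2426 to 3810 TPM in Upf2 Cre, against 554 to 1370 TPM in Upf2 mock, and rose by 2.16. Snhg12 rose by 2.00, Snhg5 by 1.71, and Snhg8 and Snhg17 by 1.28 each, while the noncoding hosts Gas5 and Snhg1 had differences of 0.42 and 1.13 and did not pass. The chaperone genes that fell are Hspa8, which fell by 1.34, and Cct6a. The median over the 25 hosts was 0.20, 7 fell without mock 3 and 4 without Upf2 Cre 3 or mock 8, and after the GC adjustment 10 rose and 2 fell.

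**Figure D3:**
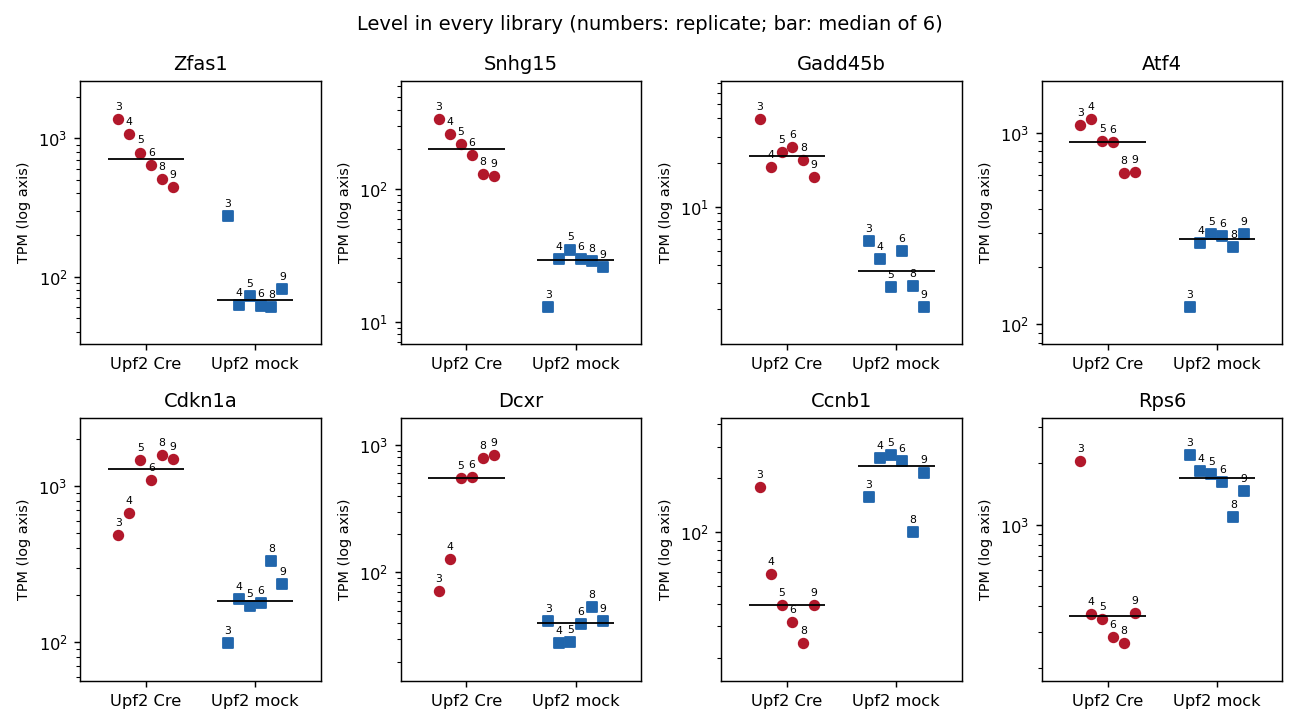
Levels in TPM on a log axis of 8 genes in each library, with the 6 Upf2 Cre points left of the 6 Upf2 mock points, the replicate number beside each point and a bar at each group's median. In Zfas1, Snhg15, Gadd45b, Atf4, Cdkn1a and Dcxr the groups are apart, and in Ccnb1 and Rps6 Upf2 Cre 3 lies with the mock libraries at 178 and 2057 TPM.

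Gene structure gave another set of possible NMD substrates. The rule asked that every principal annotated transcript with several exons have an exon junction more than 50 spliced bases after the stop codon. Coding genes that met it numbered 64, of which 28 were tested. Of these, 10 rose (35.7%) and 1 fell, with a median of 0.39. Of the 11277 tested coding genes that have such transcripts but did not meet the rule, 1758 rose (15.6%) and 2399 fell (21.3%), with a median of -0.13. Coding genes without such a transcript were left out here. After the GC adjustment 8 of the 28 rose and none fell. Phlda3, a p53 target that inhibits AKT signalling, averaged 728 ± 389 TPM in Upf2 Cre and 101 ± 39.2 TPM in Upf2 mock (SD, n = 6 each; difference 2.68 ± 0.43 SE, limma adjusted p = 0.0015). Trnp1, a regulator of progenitor expansion in mouse cortex, averaged 13.5 ± 6.07 TPM in Upf2 Cre and 3.81 ± 1.01 TPM in Upf2 mock (SD, n = 6 each; difference 1.48). Arc, an activity-regulated gene and a described NMD target with such a structure, had a difference of 1.52 that did not pass (limma adjusted p = 0.051). These genes were named after their values were seen. Coding genes with any annotated NMD isoform were close to the background: 583 of 3385 rose (17.2%) and 661 fell (19.5%), against 1221 (14.8%) and 1805 (21.9%) of 8259 without.

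Of the p53 targets that rose, genes of cell death were the largest group. Of 42 listed targets, all tested, 20 rose (47.6%), 3 fell and 19 did not pass (median 0.60), and after the GC adjustment 24 rose and none fell. Of 13 death genes 9 rose (median 1.46) and of 10 arrest genes 5 rose and 1 fell (median 0.82). Of 5 feedback genes 1 rose and 1 fell (median -0.41), of 6 repair genes 2 rose and 1 fell (median -0.16), and of 8 metabolic and secreted targets 3 rose (median 0.53). Gadd45a, Cdkn1a, Sesn2 and Gdf15 also stand on other lists here. The 3 that fell were Cdkn1b, Ppm1d and Rps27l; each lost its call after the GC adjustment and without any 1 of Upf2 Cre 5, 6 or 8 or mock 4, 5 or 6, and some further libraries. Without Upf2 Cre 3 the list had 5 fallers and without mock 8 it had 6.

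Cdkn1a (ENSMUSG00000023067.14; mm10 chr17:29090976-29100727, plus strand), which encodes the cyclin-dependent kinase inhibitor p21, had 489, 674, 1479, 1094, 1575 and 1501 TPM in Upf2 Cre 3, 4, 5, 6, 8 and 9, against 98.3, 189, 171, 179, 331 and 237 TPM in mock 3, 4, 5, 6, 8 and 9. The groups did not overlap, but Upf2 Cre 3 and 4 were the lowest of their group, the reverse of their place in Zfas1 (difference 2.46 ± 0.33 SE, limma adjusted p = 6.5e-04). The order within the Upf2 Cre group was similar for Dcxr, an enzyme of sugar metabolism on the target list, with 71.6, 128, 548, 563, 786 and 830 TPM, against 27.8 to 53.9 TPM in Upf2 mock. Every Upf2 Cre value again lay above the mock range (difference 3.18 ± 0.53 SE, limma adjusted p = 0.0016). Sesn2, a stress sensor that restrains mTORC1, spanned 210 to 581 TPM in Upf2 Cre and 62.2 to 135 TPM in Upf2 mock, and Gdf15, a secreted stress factor, 8.87 to 32.9 TPM in Upf2 Cre and 0.446 to 3.07 TPM in Upf2 mock (differences 2.28 and 2.83). Neither gene's groups overlapped.

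Apoptosis genes were counted by role. Of 36 tested members of the BCL2, caspase and death receptor list, 14 rose (38.9%), 5 fell and 17 did not pass (median 0.30), and after the GC adjustment 17 rose and 1 fell. With 1 library left out 2 to 9 fell, the most without Upf2 Cre 3. Bax, Bbc3, Bid, Pmaip1, Fas, Tnfrsf10b and Apaf1 are p53 targets on the list above as well. Of 9 executioner and BH3-only genes 6 rose and none fell, of 10 death receptors and adaptors 5 rose and 1 fell, and of 13 caspases and their partners 1 rose and 4 fell. Bbc3, which encodes the BH3-only protein PUMA, spanned 26.4 to 85.8 TPM in Upf2 Cre, with a median of 75.2 TPM, and 8.20 to 16.1 TPM in Upf2 mock, with a median of 11.7 TPM (difference 2.13). The death receptor Tnfrsf10b spanned 7.49 to 37.4 TPM in Upf2 Cre and 1.26 to 4.06 TPM in Upf2 mock (difference 2.45). Bax and Fas rose by 1.51 and 1.46, again with no overlap between the groups. The pro-survival gene Bcl2l1 rose by 1.24. Xiap and Birc2, inhibitors of apoptosis, fell by 0.89 and 0.93; both calls were lost without Upf2 Cre 6 or 8 or mock 5, that of Birc2 also without Upf2 Cre 4, 5 or 9 or mock 3, 4 or 6 and after the GC adjustment.

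The response genes of ATF4 and its partner CHOP rose in part. Of 25 listed, 23 were tested; 10 rose (43.5%), 2 fell and 11 did not pass (median 0.94), and after the GC adjustment 10 rose and 1 fell. With 1 library left out 1 to 4 fell, the most without Upf2 Cre 3. Ddit3, which encodes CHOP, rose by 2.32 and Atf5 by 1.22, while Cebpb and Xbp1 had differences of 0.87 and -0.28 and did not pass. Ppp1r15a, which encodes the phosphatase subunit GADD34 that restores translation after stress, spanned 51.4 to 75.1 TPM in Upf2 Cre, with a median of 69.2 TPM, and 14.2 to 21.1 TPM in Upf2 mock, with a median of 15.8 TPM. The groups were far apart and the spread within each was small (difference 1.91 ± 0.16 SE, limma adjusted p = 6.9e-05). Trib3, a pseudokinase induced by ATF4, had 47.8 TPM in Upf2 Cre 3 and 14.1 to 19.1 TPM in the other Upf2 Cre libraries, against 1.54 to 7.84 TPM in Upf2 mock (difference 2.12). Chac1, which degrades glutathione, and Atf3 rose by 2.07 and 2.00; both were named after their values were seen. In Chac1, mock 8 had 36.9 TPM, within the Upf2 Cre range of 32.3 to 110 TPM, and mock 9 had 30.8 TPM, just below that range, while the other 4 mock libraries had 5.58 to 8.34 TPM.

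The promoters of these 3 risers are shown because each holds a match to the core of the composite site that CHOP and ATF proteins share, spelled TGATGNAA and read on both strands. The windows run from 250 bases before to 50 bases after the annotated start, 5' to 3' on the gene's strand, as in RefSeq on GRCm38.p6 (the build of mm10), with the match in capitals. They lie at chr2:152344011-152344310 on the minus strand for Trib3, chr2:119350992-119351291 on the plus strand for Chac1 and chr1:191183284-191183583 on the minus strand for Atf3.
Trib3: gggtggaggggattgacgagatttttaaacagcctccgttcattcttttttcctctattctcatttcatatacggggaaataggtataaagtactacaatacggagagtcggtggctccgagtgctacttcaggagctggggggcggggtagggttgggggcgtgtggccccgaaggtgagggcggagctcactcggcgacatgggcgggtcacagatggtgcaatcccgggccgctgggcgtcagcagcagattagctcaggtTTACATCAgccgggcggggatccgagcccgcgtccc
Chac1: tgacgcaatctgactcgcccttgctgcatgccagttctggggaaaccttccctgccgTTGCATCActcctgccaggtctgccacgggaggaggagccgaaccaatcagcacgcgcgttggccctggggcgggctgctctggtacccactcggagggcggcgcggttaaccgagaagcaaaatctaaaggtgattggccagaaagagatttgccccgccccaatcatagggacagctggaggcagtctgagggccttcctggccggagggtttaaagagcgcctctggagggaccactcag
Atf3: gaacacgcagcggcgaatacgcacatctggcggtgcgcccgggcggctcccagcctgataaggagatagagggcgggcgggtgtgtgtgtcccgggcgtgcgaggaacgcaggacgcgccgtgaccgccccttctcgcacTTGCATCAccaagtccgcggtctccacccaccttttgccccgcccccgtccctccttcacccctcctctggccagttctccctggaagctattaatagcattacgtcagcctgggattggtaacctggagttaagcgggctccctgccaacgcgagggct
The match begins 14 bases after the start in Trib3, 193 bases before it in Chac1 and 110 bases before it in Atf3. Of 32851 promoter windows of this length 3.97% hold the core. Among the 23 genes of the ATF4 and CHOP list with a window, 3 of 10 that rose and 4 of 13 others hold it in any of their windows. A gene may have several windows, so shares of windows and counts of genes are unlike measures. A longer spelling, TGATGNAAT, occurs in 0.965% of all windows and in 2 of these 23, none of which rose; the shorter core was taken after that was seen. A match is a description of the letters and not a site.

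Amino acid transporters and translation factors were examined together as parts of protein synthesis. Of 23 tested amino acid transporters 7 rose and 2 fell (median 0.14), with 4 risers without Upf2 Cre 5 or 8 or mock 4, 5 or 6 and 5 fallers without Upf2 Cre 3; after the GC adjustment 7 rose and 1 fell. Slc7a5, the large neutral amino acid exchanger that ATF4 induces, spanned 358 to 931 TPM in Upf2 Cre and 183 to 531 TPM in Upf2 mock, with overlap (difference 1.21), and Slc1a4 and Slc6a6 rose by 0.85 and 1.13. The glutamate transporters of radial glia and astrocytes, Slc1a3 and Slc1a2, fell by 1.54 and 0.92, and the call of Slc1a2 was lost after the GC adjustment. Of 43 initiation and elongation factors 4 rose and 14 fell (median -0.40), and 12 fell after the GC adjustment. Without any 1 of Upf2 Cre 5, 6, 8 or 9 or mock 4, 5 or 6, 8 or 9 fell, and 20 fell without Upf2 Cre 3. Eif3h and Eif3l, subunits of eIF3, fell by 1.51 and 1.11. Eif4ebp1, which encodes a repressor of cap-dependent translation that ATF4 induces, averaged 184 ± 29.6 TPM in Upf2 Cre and 69.9 ± 24.3 TPM in Upf2 mock (SD, n = 6 each; difference 1.44 ± 0.22 SE, limma adjusted p = 0.0010).

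Cytosolic ribosomal protein genes fell together, except in Upf2 Cre 3. Of 81 tested, 48 fell (59.3%), 1 rose and 32 did not pass (median -0.93), and after the GC adjustment 39 fell and none rose; 3 rose without Upf2 Cre 3. Of the large subunit 32 of 48 fell, and of the small subunit 16 of 33. Their summed level was 163000 TPM in Upf2 Cre 3 and 92100 to 109500 TPM in the other 5 Upf2 Cre libraries, against 135800 to 165500 TPM in Upf2 mock, so the groups were apart without Upf2 Cre 3. Rps6 (ENSMUSG00000028495.14; mm10 chr4:86854660-86857412, minus strand), the small subunit protein phosphorylated downstream of mTORC1, had 2057, 365, 348, 283, 263 and 369 TPM in Upf2 Cre 3, 4, 5, 6, 8 and 9, against 2187, 1837, 1771, 1624, 1092 and 1462 TPM in mock 3, 4, 5, 6, 8 and 9. Apart from Upf2 Cre 3, every Upf2 Cre value lay far under every mock value (difference -1.89 ± 0.41 SE, limma adjusted p = 0.0065; -2.25 without both libraries numbered 3). Rpl7a fell by 1.33, with 2604 TPM in Upf2 Cre 3 and 601 to 1001 TPM in the other Upf2 Cre libraries, against 1974 to 2702 TPM in Upf2 mock. Eef1a1, the elongation factor that brings aminoacyl-tRNA to the ribosome and the gene with the largest fall in TPM, had 13259 TPM in Upf2 Cre 3 and 2538 to 3530 TPM in the others, against 4660 to 16959 TPM in Upf2 mock, a fall of 1.43. Processed pseudogenes named after ribosomal proteins moved the same way: 58 of 118 tested fell (49.2%) and none rose. The wider class fell too: of 1259 tested genes annotated as processed pseudogenes 442 fell (35.1%) and 39 rose (3.1%). After the GC adjustment 45.8% of the ribosomal copies and 23.1% of that class fell. Reads of the near-identical ribosomal copies and of the parent genes may have been split between them, so the single levels are uncertain. Of 77 ribosomal proteins of mitochondria 31 fell and 7 rose (median -0.54), 4 rose and 15 fell after the GC adjustment, and the count of falls was 47 without Upf2 Cre 3 and 16 to 20 without Upf2 Cre 5, 6 or 8 or mock 6. The count of rises was 12 without Upf2 Cre 3 and 1 to 3 without Upf2 Cre 5, 6, 8 or 9 or mock 4, 5 or 9. Mrps6 was an exception, with 111 to 217 TPM in Upf2 Cre and 39.99 to 70.1 TPM in Upf2 mock (difference 1.51).

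Mitotic genes fell and none rose. Of 63 tested genes of mitosis and the spindle, 43 fell (68.3%, median -0.87); 28 fell after the GC adjustment, 28 without Upf2 Cre 8 or mock 5, and 53 without both libraries numbered 3. Of 13 cyclins and mitotic kinases 10 fell (median -1.25), of 19 spindle motors and factors 16 fell (median -1.11), and of 14 kinetochore genes 6 fell (median -0.65). Ccnb1 (ENSMUSG00000041431.16; mm10 chr13:100778650-100786570, minus strand), which encodes cyclin B1, had 178, 58.9, 39.3, 31.5, 24.1 and 39.2 TPM in Upf2 Cre 3, 4, 5, 6, 8 and 9, against 158, 259, 269, 251, 101 and 216 TPM in mock 3, 4, 5, 6, 8 and 9. Upf2 Cre 3 again lay inside the mock range and the other 5 lay below it (difference -2.02 ± 0.40 SE, limma adjusted p = 0.0045). Tpx2, a spindle assembly factor, had 127 TPM in Upf2 Cre 3 and 30.6 to 72.3 TPM in the others, against 115 to 215 TPM in Upf2 mock (difference -1.59). Cdc20, the activator of the anaphase-promoting complex, fell by 0.75, and Plk1 had a difference of -0.49 that did not pass (limma adjusted p = 0.13) but passed after the GC adjustment and without Upf2 Cre 4 or mock 3.

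The promoters of 3 mitotic genes with large falls that hold the cell cycle homology region core are shown. That core, TTTGAA, is the element through which the DREAM complex represses mitotic genes, and it was read on both strands. The windows are from RefSeq on GRCm38.p6, 5' to 3' on the gene's strand, with matches in capitals, at chr10:69352863-69353162 on the minus strand for Cdk1, chr11:99024140-99024439 on the minus strand for Top2a and chr9:70421505-70421804 on the minus strand for Ccnb2.
Cdk1: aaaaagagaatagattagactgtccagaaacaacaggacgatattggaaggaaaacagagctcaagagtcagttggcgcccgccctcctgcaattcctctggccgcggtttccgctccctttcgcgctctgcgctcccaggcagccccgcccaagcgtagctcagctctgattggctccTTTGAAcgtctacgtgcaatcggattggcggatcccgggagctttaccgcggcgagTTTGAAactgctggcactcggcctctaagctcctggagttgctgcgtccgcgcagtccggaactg
Top2a: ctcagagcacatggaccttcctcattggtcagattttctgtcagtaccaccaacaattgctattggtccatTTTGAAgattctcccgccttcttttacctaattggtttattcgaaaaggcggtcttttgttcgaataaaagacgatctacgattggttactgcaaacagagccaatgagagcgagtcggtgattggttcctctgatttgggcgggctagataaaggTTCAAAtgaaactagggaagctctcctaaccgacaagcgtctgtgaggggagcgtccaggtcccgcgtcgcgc
Ccnb2: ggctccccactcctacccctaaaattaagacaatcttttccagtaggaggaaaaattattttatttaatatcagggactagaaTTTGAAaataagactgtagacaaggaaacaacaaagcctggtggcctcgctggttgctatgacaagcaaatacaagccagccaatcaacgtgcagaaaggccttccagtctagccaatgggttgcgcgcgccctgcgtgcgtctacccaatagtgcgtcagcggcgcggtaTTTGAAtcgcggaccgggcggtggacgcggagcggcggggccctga
Matches begin 71 and 15 bases before the start in Cdk1, 179 and 23 bases before it in Top2a, and 167 bases before and 4 bases after it in Ccnb2. Of all 32851 windows 17.9% hold TTTGAA. Among the 53 mitotic genes with a window, 29 of 39 that fell and 9 of 14 that did not hold it in any of their windows. The share of windows and the counts of genes are again unlike measures. Cdk1, the mitotic cyclin-dependent kinase, had 118 TPM in Upf2 Cre 3 and 20.3 to 54.7 TPM in the other Upf2 Cre libraries, against 68.4 to 191 TPM in Upf2 mock (difference -1.73). Top2a, which untangles sister chromatids, fell by 1.598, and Ccnb2 fell by 1.53.

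Genes of DNA replication lay lower as well. Of 45 tested 14 fell and none rose (median -0.68), and 7 fell after the GC adjustment. This count moved with mock 3: 35 fell without it, and 7 fell without any 1 of Upf2 Cre 5, 6, 8 or 9 or mock 4, 5, 6 or 9. Without Upf2 Cre 3, 21 fell. Rrm1, a subunit of ribonucleotide reductase, had 98.3 TPM in Upf2 Cre 3 and 17.2 to 35.1 TPM in the others, against 51.7 TPM in mock 3 and 64.8 to 145 TPM in the other mock libraries (difference -1.73). Cyclin D1 (Ccnd1) had 750 to 1878 TPM in Upf2 Cre, against 30.4 TPM in mock 3 and 690 to 1007 TPM in the other mock libraries; its difference of 1.504 did not pass (limma adjusted p = 0.096) and was 0.89 without both libraries numbered 3, where it passed. The CDK inhibitor Cdkn2c fell by 1.55, with 25.1 to 80.3 TPM in Upf2 Cre and 86.4 to 170 TPM in Upf2 mock and no overlap, and Cdkn1c fell by 1.72. Of 32 tested replication-dependent histone genes 6 rose and 1 fell (median 0.34), but after the GC adjustment 4 rose and 5 fell (median -0.05); 3 rose without Upf2 Cre 6, 8 or 9 or mock 5 or 6. Hist2h2aa2 had 0.858 TPM in Upf2 Cre 3 and 4.23 to 24.4 TPM in the others, against 0.141 to 1.91 TPM in Upf2 mock (difference 2.29), and it has a near-identical copy, so its level is uncertain.

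**Figure D4:**
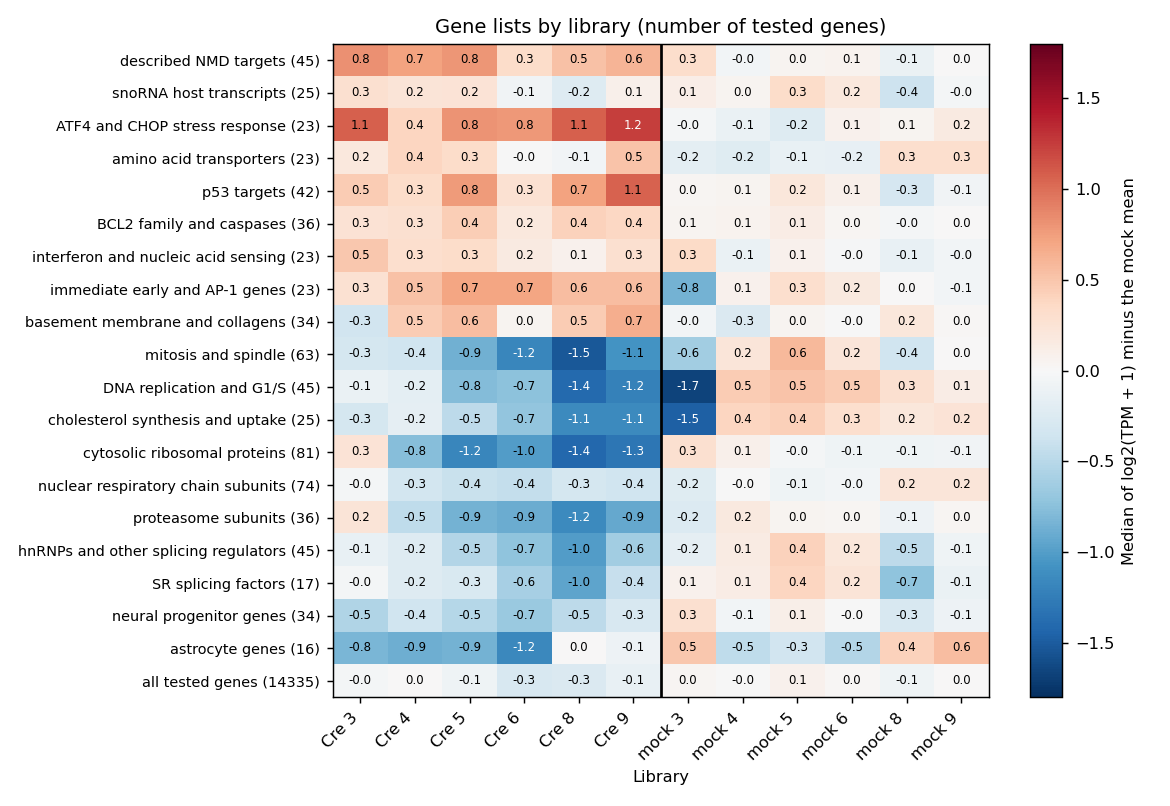
Median over the tested members of each gene list (rows) of log2(TPM + 1) minus the mock mean in each library (columns, Upf2 Cre left of the line and Upf2 mock right). The ribosomal proteins are at 0.25 in Upf2 Cre 3 and between -1.41 and -0.76 in the other Upf2 Cre libraries, and mock 3 has the lowest values of replication and cholesterol genes at -1.67 and -1.47.

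Sterol, mitochondrial and proteasome genes were next. Of 25 tested genes of cholesterol synthesis and uptake 12 fell and none rose (median -0.65); 3 fell after the GC adjustment, and 7 without any 1 of Upf2 Cre 5, 6, 8 or 9 or mock 4, 5 or 6. Hmgcs1, which makes the HMG-CoA of the sterol pathway, had 431 TPM in Upf2 Cre 3 and 97.1 to 278 TPM in the others, against 226 TPM in mock 3 and 360 to 1227 TPM in the other mock libraries (difference -1.76). Of 74 nuclear respiratory chain subunits 32 fell and 4 rose (median -0.30), with 5 rises and 22 falls after the GC adjustment and 18 to 21 falls without Upf2 Cre 5, 6 or 8 or mock 4 or 9. The rises were 17 without Upf2 Cre 3, 10 without mock 8 and 0 to 5 without any 1 of the other libraries, and under median-ratio scaling 10 rose and 18 fell. Uqcrc2, a core subunit of complex III, had 333 TPM in Upf2 Cre 3 and 59.2 to 119 TPM in the others, against 304 to 412 TPM in Upf2 mock (difference -1.83). None of the 13 mitochondrially encoded mRNAs passed in limma with all 12 libraries (median 0.30; 3 had an unadjusted p under 0.05), but 5 rose and 1 fell without Upf2 Cre 3, 1 rose and 1 fell without mock 8, and 1 rose after the GC adjustment. Of 36 proteasome subunits 14 fell and 2 rose (median -0.66), 10 fell and none rose after the GC adjustment, 5 rose and 23 fell without Upf2 Cre 3 and 8 fell without Upf2 Cre 5, 6 or 8 or mock 4, 5 or 6. Psma5, of the core particle, had 767 TPM in Upf2 Cre 3 and 105 to 237 TPM in the others, against 486 to 651 TPM in Upf2 mock (difference -1.59).

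Genes of RNA splicing were counted in 3 lists. Of 45 tested hnRNP and other splicing regulator genes 19 fell (42.2%) and 2 rose (median -0.58), 3 rose and 12 fell after the GC adjustment, and 9 to 12 fell without any 1 of Upf2 Cre 5, 6, 8 or 9 or mock 4, 5 or 6. Of 17 SR proteins 4 fell (23.5%, near the 21.1% of all tested genes; median -0.45), with 8 without Upf2 Cre 3 and 9 without mock 8, and after the GC adjustment 1 rose and 3 fell (median 0.04). Of 15 exon junction complex genes 5 fell and none rose (median -0.25), 4 of them among the 5 core genes, 3 fell without Upf2 Cre 5, 6, 8 or 9 or mock 4 or 5, and after the GC adjustment 1 rose and 3 fell. Magoh, a core subunit of that complex, had 227 TPM in Upf2 Cre 3 and 39.4 to 66.0 TPM in the others, against 78.4 to 290 TPM in Upf2 mock (difference -1.55). Srsf7 fell by 1.54, and Hnrnpc fell by 1.66. The SR genes carry poison exons whose inclusion NMD acts on, and gene-level TPM do not separate these isoforms.

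**Figure D5:**
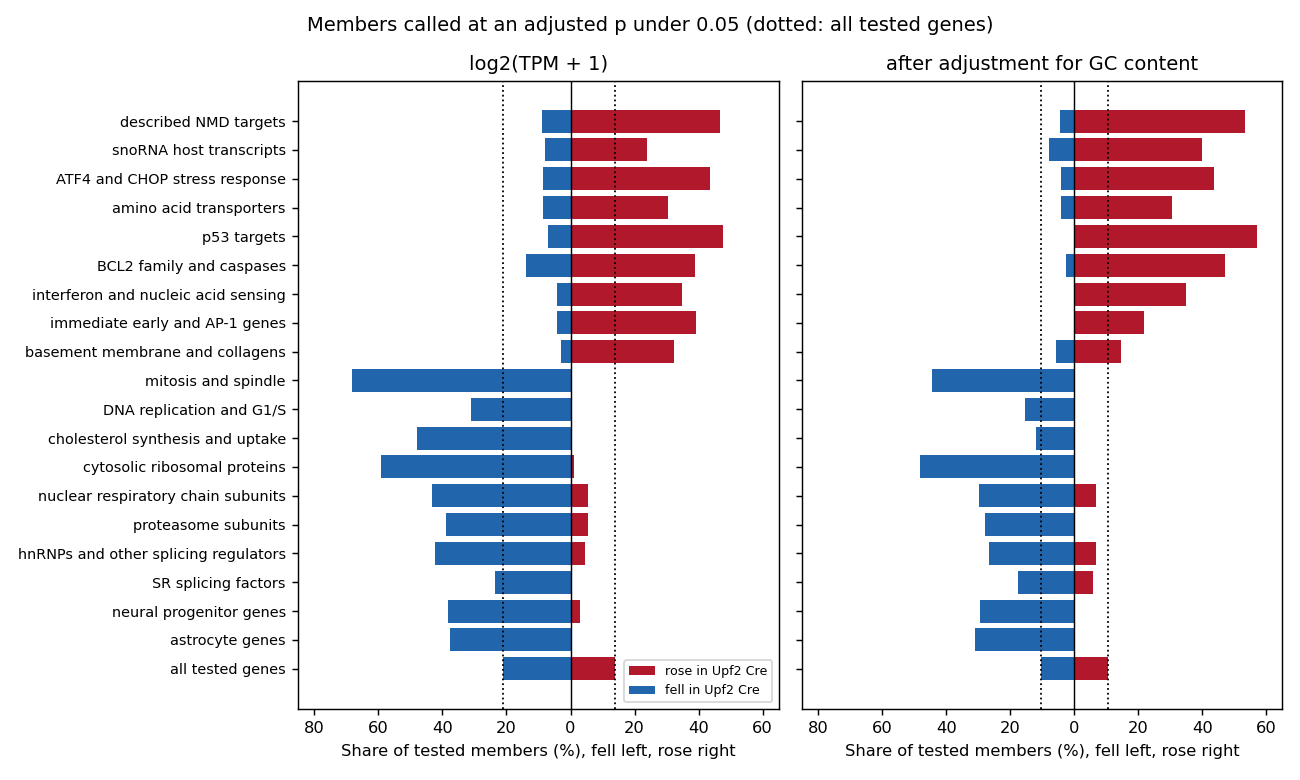
Share in percent of the tested members of each gene list that rose in Upf2 Cre (right of 0) and fell (left of 0), before (left panel) and after (right panel) the GC adjustment, with dotted lines at the shares of all tested genes. Before the adjustment 46.7% of NMD targets and 47.6% of p53 targets rose, against 13.8% of all tested genes, and 68.3% of mitotic genes fell, against 21.1%.

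Redox and polyamine genes were split. Of 24 tested NRF2 antioxidant genes 6 rose and 6 fell, and after the GC adjustment 6 rose and 5 fell. With 1 library left out 4 to 6 rose and 5 to 9 fell. Hmox1, which encodes heme oxygenase, spanned 151 to 421 TPM in Upf2 Cre and 83.4 to 150 TPM in Upf2 mock (difference 1.33), and Osgin1, an oxidative stress growth inhibitor, averaged 12.7 ± 11 TPM in Upf2 Cre and 0.269 ± 0.218 TPM in Upf2 mock (SD, n = 6 each; difference 2.94). Nqo1 and Prdx1, from the same list, fell by 1.32 and 1.59. Of 20 selenoprotein genes 6 rose and 4 fell (20%, near the background), 8 rose and 9 fell without Upf2 Cre 3, and 2 rose and 3 fell after the GC adjustment. Among them Selenow and Gpx1 rose by 1.51 and 1.39, with no overlap. In polyamine metabolism Odc1, the rate-limiting enzyme, and Azin1, an antizyme inhibitor, fell by 0.93 and 1.05, whereas Azin2 rose by 2.43, with 12.1 to 63.0 TPM in Upf2 Cre and 3.76 to 6.86 TPM in Upf2 mock.

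Immediate early, secreted and interferon-related genes rose in part. Of 23 tested immediate early genes 9 rose and 1 fell (median 0.58), and 5 rose after the GC adjustment. With 1 library left out 6 to 12 rose. Klf4 spanned 6.96 to 14.4 TPM in Upf2 Cre and 1.26 to 4.09 TPM in Upf2 mock (difference 1.67), and the AP-1 members Junb and Fosl2 rose by 1.82 and 1.31. Of 31 secreted cytokines and growth factors 8 rose and 3 fell (median 0.43), 7 to 12 rose with 1 library left out, and 9 rose after the GC adjustment. Lif, a cytokine that acts on progenitors, spanned 2.46 to 7.11 TPM in Upf2 Cre and 0.0844 to 0.842 TPM in Upf2 mock (difference 1.88). Of 23 interferon and nucleic acid sensing genes 8 rose and 1 fell (median 0.16), and 8 rose after the GC adjustment. Ifitm3, a restriction factor for viruses, spanned 24.7 to 87.6 TPM in Upf2 Cre and 3.48 to 17.0 TPM in Upf2 mock (difference 1.99), and Cxcl10 averaged 2.60 ± 1.46 TPM in Upf2 Cre and 0.364 ± 0.224 TPM in Upf2 mock (SD, n = 6 each; difference 1.33). Virus exposure goes with Cre, so the part of either in these rises cannot be told apart. Of 34 basement membrane and matrix genes 11 rose and 1 fell (median 0.26), with 7 risers without Upf2 Cre 5 and 5 after the GC adjustment. Col18a1, which encodes the collagen that releases endostatin, had the largest rise of the named genes, with 23.7, 10.9, 60.3, 40.1, 43.0 and 65.8 TPM in Upf2 Cre 3, 4, 5, 6, 8 and 9, against 3.61, 1.90, 2.85, 2.62, 1.18 and 1.51 TPM in mock 3, 4, 5, 6, 8 and 9 (difference 3.50 ± 0.37 SE, limma adjusted p = 1.6e-04). The groups did not overlap.

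The labelled cell type was checked against its markers. Of 36 listed neural progenitor genes 34 were tested, and the summed level of the list was 7197 to 14174 TPM in Upf2 Cre and 10192 to 18905 TPM in Upf2 mock. Sox2 and Nes were high in both groups, with medians of 131 and 863 TPM in Upf2 Cre and 215 and 690 TPM in Upf2 mock. Of these, Sox2 fell and Nes did not pass. Emx1, a transcription factor of dorsal cortical progenitors, was under 1 TPM in every library. Of the progenitor genes 13 fell and 1 rose (median -0.47); 10 fell and none rose after the GC adjustment, and 6 to 8 fell without Upf2 Cre 5, 6 or 8 or mock 5. Fabp7, the brain lipid-binding protein of radial glia, had 6640 TPM in Upf2 Cre 3 and 1422 to 2774 TPM in the others, against 3138 to 10688 TPM in Upf2 mock (difference -1.46), and Vcam1 had 2.62 to 9.87 TPM in Upf2 Cre and 10.1 to 65.7 TPM in Upf2 mock, with no overlap (difference -2.24). Slc1a3, which encodes the glutamate transporter GLAST, had 136 to 330 TPM in Upf2 Cre and 408 to 656 TPM in Upf2 mock, again with no overlap (difference -1.54). Pax6, a transcription factor of radial glia, fell too, with medians of 3.16 TPM in Upf2 Cre and 8.87 TPM in Upf2 mock. By role, 3 of 17 transcription factors of the list fell (17.6%, against 21.1% of all tested genes) and none rose. Of 17 surface and cytoskeleton genes 10 fell and 1 rose. After the GC adjustment 4 of the transcription factors (23.5%) and 6 of the surface and cytoskeleton genes (35.3%) fell, against 10.3% of all tested genes. Under median-ratio scaling 0 of the transcription factors and 8 of the surface and cytoskeleton genes fell. Mki67, a marker of dividing cells, fell with overlapping groups of 46.6 to 139 TPM in Upf2 Cre and 53.3 to 189 TPM in Upf2 mock.

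Markers of other cell types were measured in the same libraries. Of 30 neuron genes 17 were tested, 4 rose and 1 fell, with 1 riser without Upf2 Cre 5, 8 or 9 or mock 4, 5 or 6 and 2 risers after the GC adjustment. Their summed level was 820 to 1101 TPM in Upf2 Cre and 707 to 1242 TPM in Upf2 mock, and Stmn2, Neurod2, Neurod6, Tbr1, Nefl, Gad2, Dlx5 and Eomes were under 1 TPM in every library. Of 17 astrocyte genes 16 were tested and 6 fell (5 after the GC adjustment). Their sums were 1736, 2526, 3305, 2720, 7107 and 6246 TPM in Upf2 Cre 3, 4, 5, 6, 8 and 9. In mock 3, 4, 5, 6, 8 and 9 they were 7248, 2572, 2625, 2446, 5690 and 6048 TPM. In both groups numbers 8 and 9 thus had higher astrocyte sums than numbers 4, 5 and 6, a shift that the main fit does not model. Of 13 oligodendrocyte lineage genes 10 were tested, 1 rose and 1 fell, with 0 to 2 of each when a library was left out and none after the GC adjustment, and the sums were 1530 to 4513 TPM in Upf2 Cre and 2418 to 3637 TPM in Upf2 mock. Of 13 microglia genes 12 were under 1 TPM in every library, among them Aif1, Cx3cr1 and Csf1r, and the sums were 10.3 to 41.6 TPM in Upf2 Cre and 15.5 to 71.0 TPM in Upf2 mock. Of 18 vascular and meningeal genes 15 were under 1 TPM in every library, among them Pecam1, Cldn5 and Col1a1, and the sums were 16.8 to 32.3 TPM in Upf2 Cre and 21.1 to 48.3 TPM in Upf2 mock. The neuron, astrocyte, oligodendrocyte, microglia and vascular sums overlapped between the groups. The part of shifts in cell types in the gene differences was not tested.

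Among single genes outside these lists, Stk19 and Pdrg1, named after their values were seen, shared with Ppp1r15a the smallest adjusted p. Stk19 had 77.8 to 125 TPM in Upf2 Cre and 27.9 to 33.3 TPM in Upf2 mock, and Pdrg1, a p53 and DNA damage regulated gene, had 238 to 295 TPM in Upf2 Cre and 53 to 97.6 TPM in Upf2 mock (differences 1.68 ± 0.15 and 1.87 ± 0.17 SE, limma adjusted p = 6.9e-05 in each). In both, Upf2 Cre 3 lay with its own group. Acaa1b, a peroxisomal thiolase, averaged 31.9 ± 22 TPM in Upf2 Cre and 0.997 ± 0.455 TPM in Upf2 mock (SD, n = 6 each; difference 3.50), and Tnfrsf12a, the receptor of the cytokine TWEAK, had 85.7 to 439 TPM in Upf2 Cre, against 2.99 TPM in mock 3 and 56.7 to 71.3 TPM in the other mock libraries (difference 2.78). Emp3 and Creb3l1 rose by 2.86 and 2.72. The largest falls with no overlap were in Grm3, a metabotropic glutamate receptor of glia, with 3.74 to 18.8 TPM in Upf2 Cre and 20.5 to 45.8 TPM in Upf2 mock (difference -2.25), and in Vcam1, described above. Vit, Prkcq and Map2k6 fell by 2.19, 1.74 and 1.71. Rises were also called in short genes annotated as miRNAs, Gm24270 and Gm24187 (differences 1.82 and 1.70), and the call of Gm24270 was lost without Upf2 Cre 5 or mock 4 or 5 and after the GC adjustment.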

How the data were processed

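Total RNA of the 12 libraries was sequenced from libraries made with Illumina's TruSeq Stranded Total RNA kit, per the labels' protocols. Reads were aligned with STAR to mm10, per the submitters' processing notes; versions, the quantifier, its annotation and its strand setting are not given in the sources used here. The authors deposited TPM for 55573 genes, and each library sums to the same total, so depth and counting error are unknown. From these, log2(TPM + 1) was computed, genes that reached 1 TPM in 6 or more of the 12 libraries were kept, and 2 group means were fitted with limma 3.58.1 (R 4.3.3; moderation with a mean-variance trend; Benjamini-Hochberg, threshold 0.05). Upf2 and Trp53 levels were tested by exact two-sided permutation, whose p cannot fall below 0.0022 with 6 against 6 libraries.

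Of the gene IDs, 55480 matched GENCODE M21 without the version, which gave biotypes, coordinates, exon junctions and transcript GC content; 27 names that had become dates were restored by ID. For the GC adjustment, added after seeing the data, each library's median deviation in 40 bins of GC content was subtracted. The members and the 53 gene lists were chosen with earlier results of these data known. Named genes are Upf2, Trp53, the largest changes with no overlap between groups, up to 4 members of each list per direction with the smallest adjusted p, and genes marked in the text as chosen after their values were seen. Some differences of other list members are given where a list is described. The alternatives were another pseudocount, other minimum levels, other scalings, moderation without a trend, a 1.5-fold minimum, a replicate block, all 18 libraries in the fit, leaving out each library, and leaving out both numbered 3. On simulated data for Upf2 Cre against Upf2 mock with 14335 genes, 8%, 50%, 94% and 100% of log2 changes of 0.5, 1, 2 and 3 were recovered and 6 unchanged genes were called. Noise was drawn independently for each gene there, so shifts that many genes share within a library were not covered. Plots were drawn with Matplotlib 3.10.9. Single values of some list members are not reported here.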

Additional observations from a re-analysis of the deposited data

Results flagged for a closer look

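Among the 145 genes with values in every library, 290 groups of 6 were checked for a library whose gap to its neighbour exceeded Dixon's 95% critical share of the group's range on the log2(TPM + 1) scale. There were 48 such values, and chance gives about 1 in 20 groups. Upf2 Cre 3 held 21 of them, mock 3 held 19, mock 8 held 6, and Upf2 Cre 4 and mock 9 held 1 each. The cause was not tested.

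Upf2 Cre 3 was the highest of its group in each of its 21 genes. Among genes of translation and the proteasome it had 13259 TPM for Eef1a1, 2057 for Rps6, 496 for Rps15a, 2604 for Rpl7a, 4271 for Rps3a1, 1155 for Rps27l, 472 for Eif3h and 200.3 for Psma2. Among genes of RNA processing it had 156 TPM for Srsf7, 394 for Hnrnpc and 227 for Magoh. The remaining values were 296 TPM for Cct6a, 77.8 for Cdkn1b, 47.8 for Trib3, 39.7 for Rfc3, 13.8 for Nrcam, 3787 for Dbi, 741 for Prdx1, 15.9 for Nqo1, 87.3 for Azin1 and 229 for Pdia4. In Trib3 this library lay farther from the mock group than the others did, and in the rest it lay nearer to it.

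Mock 3 was the lowest of its group for Snhg15 (13.0 TPM), Atf4 (124), Tnfrsf10b (1.26), Plk1 (139), Rfc3 (18.2), Acat2 (124), Fdft1 (90.4), Eif4a3 (172), Odc1 (125) and Pvt1 (2.78). The widest gaps were in Ccnd1, with 30.4 TPM against 689.5 to 1007 TPM in the other 5 mock libraries, and in Tnfrsf12a, with 2.99 TPM against 56.7 to 71.3 TPM. It was the highest for Zfas1 (275 TPM), Snhg12 (88.1), Psat1 (947), Hist2h2be (26.0), Vit (75.5), Slc15a2 (73.2) and 2410006H16Rik (1369.7).

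Mock 8 was the lowest mock library for Eif3h (334 TPM), Rpl7a (1974), Psma2 (76.6), Srsf3 (67.6), Nono (326) and Ifitm3 (3.48). Upf2 Cre 4 was the highest for Plk1 (332 TPM), and mock 9 was the highest for Fabp5 (1106 TPM).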

How the results depend on the processing

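Of the 4997 changed genes, 1974 rose and 3023 fell. A 1.5-fold minimum left 92, 85 and 7. Without both libraries numbered 3 the counts were 8257, 3515 and 4742. Leaving out 1 library gave 2872 to 7536 changed, 1212 to 3123 risers and 1625 to 4413 fallers. The GC adjustment gave 2984 changed and 1481 fallers, 1719 fallers with the replicate block, and 3581 risers without both libraries numbered 3; without a minimum level 1876 fell. The Upf2 difference passed in every setting run (0.69 to 0.92 leaving out 1 library). The Trp53 difference of 0.39 passed by exact tests under median-ratio scaling (0.54) and the replicate block (0.39) and without both libraries numbered 3 (0.45); leaving out 1 library it was 0.29 to 0.51. The 145 named genes were chosen in large part by their changes in these same libraries, so a held direction among them was largely set by that choice. None of them changed direction. Under the GC adjustment 13 lost their call and 1 gained it. The call was lost by 109 under the 1.5-fold minimum, 15 without a minimum level, and up to 12 when 1 library was left out. The causes were not tested.

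Equal replicate numbers share only a number as far as the labels say. Deviations of same-numbered libraries correlated at 0.10, 0.19, -0.09, 0.22, 0.59 and 0.37 for numbers 3, 4, 5, 6, 8 and 9, and only 8 and 9 matched their own number best. The replicate block gave 5955 changed genes (2453 rose, 3502 fell), an Upf2 difference of 0.82 and a Trp53 difference of 0.39, both with an exact sign-flip adjusted p = 0.031, the smallest possible. TPM limit precision, since they keep no depth.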
